A study of Homo sapiens with 6 samples.

Results

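The 67 genes described here encode zinc finger transcription factors with the symbols ZBTB, ZSCAN or ZKSCAN. They were taken by symbol alone, as a number after ZBTB, ZSCAN or ZKSCAN with at most 1 letter behind it after ZBTB and ZSCAN, and at least 10 counts over 6 libraries. Of 56832 rows in the count tables, 70 matched the names and 67 had enough counts: 41 ZBTB, 19 ZSCAN and 7 ZKSCAN genes. ZSCAN10, at 12 counts in total, was the member nearest the limit, and ZSCAN4, at 4 counts, lay just below it. ZBTB9 and ZSCAN1 had no count in any library, where a floor of 3 counts over a group corresponds to 0.0219 CPM untreated and 0.0519 CPM with MGO. Of the members, 64 passed the filter on low counts and were tested, among 17415 tested genes. All 41 ZBTB members passed, whereas ZSCAN10, ZSCAN5B and ZSCAN5C did not.

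Poly(A) RNA was sequenced from HEK293T cells, a human embryonic kidney line, in which GLO1 had been knocked out. All 6 libraries came from these knockout cells: 3 were untreated (numbered 1, 2 and 4) and 3 had 0.2 mM methylglyoxal (MGO) in the medium overnight (numbered 1, 3 and 4). MGO, which arises from glycolysis, is a reactive dicarbonyl and glycates proteins, histones included, and GLO1 encodes glyoxalase 1, the enzyme that begins its removal. The comparison asked which transcripts of the knockout cells were higher or lower after MGO was added. The labels do not say whether the knockout line is 1 clone, no unmodified HEK293T cells were analysed here, and nothing states that each library is a culture of its own. The p-values therefore reflect only the variation among these libraries, part or all of which may be technical.

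These factors share a C-terminal array of C2H2 zinc fingers that reads DNA and differ in the domain at the other end of the protein. In ZBTB proteins that domain is the BTB (or POZ) fold, which forms dimers and recruits corepressors such as BCOR. ZSCAN and ZKSCAN proteins carry a SCAN domain, a leucine-rich dimerization module with no repressor activity of its own, and ZKSCAN proteins as a rule also carry a KRAB domain, which recruits TRIM28 and heterochromatin proteins. Many ZBTB factors are known as switches of cell fate, in blood cells above all. Most SCAN factors are less studied.

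Libraries held 41002134 to 45910040 counts without MGO and 19195920 to 21544749 with MGO, so depth and treatment cannot be told apart. Mitochondrial transcripts took 4.20% to 5.42% of counts without and 5.34% to 8.17% with MGO, and libraries numbered 1 had the highest share in each group. GLO1 itself was detected in every library (1969 to 2365 counts untreated, 2434 to 3048 with MGO). Scaled for depth it rose from 48.1 ± 2.57 to 140 ± 5.30 CPM (log2 1.55). Gene-level counts cannot check a small coding lesion. Of the genes fixed as typical of the line, all 6 were detected, KRT8 at 512 to 535 CPM and NEFM at only 1.53 to 1.64 CPM in untreated cells, and the 9 defining genes of other cell types together reached at most 1.22 CPM. Members took 0.140% to 0.143% of counts without MGO and 0.199% to 0.218% with it.

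Promoter sequences from RefSeq (GRCh38.p14), running from 250 bases before to 50 bases after an annotated start, matched 54 of the 64 tested members. Those without an entry were ZBTB6, ZBTB10, ZBTB12B, ZBTB16, ZBTB17, ZBTB40, ZBTB41, ZKSCAN2, ZSCAN16 and ZSCAN26. Shown first are those in which a palindromic cAMP response element, TGACGTCA, was found, because the group holds both the ZBTB gene with the largest rise among those averaging at least 2 CPM and the SCAN gene with the largest fall. The element is in capitals, and each stretch holds up to 60 bases on either side of it. A stretch stops before the annotated start or with the element, whichever comes later. In ZBTB48 the element begins 7 bases after the annotated start, so the bases just before it also lie past that start.
ZBTB21 (chr21:42010354-42010421, minus strand): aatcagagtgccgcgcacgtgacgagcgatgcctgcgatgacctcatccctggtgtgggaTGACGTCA
ZBTB48 (chr1:6579940-6580007, plus strand): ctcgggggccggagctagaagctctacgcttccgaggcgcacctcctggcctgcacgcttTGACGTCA
ZBTB11 (chr3:101677177-101677304, minus strand): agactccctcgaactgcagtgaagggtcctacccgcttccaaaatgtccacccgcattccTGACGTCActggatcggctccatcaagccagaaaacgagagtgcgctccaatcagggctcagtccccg
ZBTB38 (chr3:141368395-141368503, plus strand): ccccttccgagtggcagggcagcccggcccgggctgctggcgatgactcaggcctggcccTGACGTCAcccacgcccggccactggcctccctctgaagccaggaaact
ZSCAN5A (chr19:56314580-56314707, minus strand): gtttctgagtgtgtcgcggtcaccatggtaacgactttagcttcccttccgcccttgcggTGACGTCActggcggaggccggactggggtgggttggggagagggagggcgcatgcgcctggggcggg

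The element is its own reverse complement, so both strands give the same match. It was chosen after the values were seen, and a link between it and the direction of change was not tested. It was present in 4 of 34 ZBTB members with a promoter sequence, all 4 of them higher with MGO, and in 1 of 20 SCAN members, ZSCAN5A, which was lower. Over the 10841 tested genes with a promoter sequence, 3.70% held the element and 52.4% of those were called higher, against 40.0% of all genes with a promoter sequence. A second, rarer sequence, TCGCGAGA (in 2.64% of these genes, read on both strands), was found in no ZBTB member and in 2 ZKSCAN genes, both of which rose, as did 55.6% of all genes that hold it. It is printed in capitals for them.
ZKSCAN5 (chr7:99504511-99504638, plus strand): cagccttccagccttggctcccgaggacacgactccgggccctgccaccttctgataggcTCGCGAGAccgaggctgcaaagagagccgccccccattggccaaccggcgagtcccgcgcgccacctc
ZKSCAN7 (chr3:44554983-44555110, plus strand): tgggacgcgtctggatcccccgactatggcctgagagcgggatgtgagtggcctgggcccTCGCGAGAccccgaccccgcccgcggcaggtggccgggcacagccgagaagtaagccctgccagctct

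The ETS site CCGGAAG was found in 12 of 34 ZBTB members, 5 higher and 7 lower with MGO. It was also found in 14 of 20 SCAN members, 11 higher and 2 lower. Of all tested genes with a promoter sequence, 20.7% held it, and 51.0% of those were called higher. With or without the site, 41.5% of tested ZBTB genes and 78.3% of tested SCAN genes were called higher. CCAAT occurred in 18 ZBTB members (6 higher, 10 lower) and in 9 SCAN members (6 higher, 1 lower). Of all tested genes with a promoter sequence, 42.9% held it. Of those, 40.7% were called higher, against 40.0% of all genes with a promoter sequence. The E-box CACGTG was present in 8 ZBTB and 2 SCAN members (12.4% of all), the AP-1 site TGACTCA in 2 and 1 (4.90% of all), and TGATGNAA, a composite element bound by ATF4 with C/EBP factors, in ZBTB38 alone (2.73% of all). Promoters of SCAN members had a median GC content of 61.1%, those of ZBTB members 65.5%, and those of all tested genes 64.8%. A match describes letters in 1 window per annotated start and shows no binding.

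ZBTB genes went in both directions with MGO, and most SCAN genes rose. Of 41 tested ZBTB genes, 17 were higher, 20 lower and 4 not called (edgeR quasi-likelihood test, adjusted p under 0.05). Of 23 tested SCAN genes, 18 were higher, 2 lower and 3 not called. Over all tested genes, 83.1% were called in either direction, 41.8% higher and 41.2% lower. ZBTB genes, at 41.5% higher and 48.8% lower, thus stood near the background in direction, while SCAN genes were higher in 78.3% and lower in 8.70% of cases.

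The median log2 fold change was -0.04 for ZBTB genes (quartiles -0.65 and 1.42), 0.93 for SCAN genes (0.35 and 1.5) and 0.01 for all tested genes (-0.67 and 0.75). The SCAN median thus exceeded the ZBTB median by 0.96. The ZBTB median turned positive, to 0.011, with untreated libraries thinned to the mean depth of the MGO libraries, and to 0.00067 when only genes with 1 CPM or more in all libraries were kept. The SCAN median stayed between 0.81 and 1.08 over all alternatives. Within the SCAN class, ZSCAN genes (12 higher, 1 lower, 3 not called, median 0.86) and ZKSCAN genes (6 higher, 1 lower, median 1.07) lay close together. The 465 tested genes with a numbered ZNF symbol, most of them other C2H2 zinc finger genes, had 343 higher (73.8%) and 74 lower (15.9%), with a median of 0.79. A shift upward was thus not particular to SCAN genes. Genes are not replicates and the members were chosen with results known, so these class differences were not tested.

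**Figure D1:**
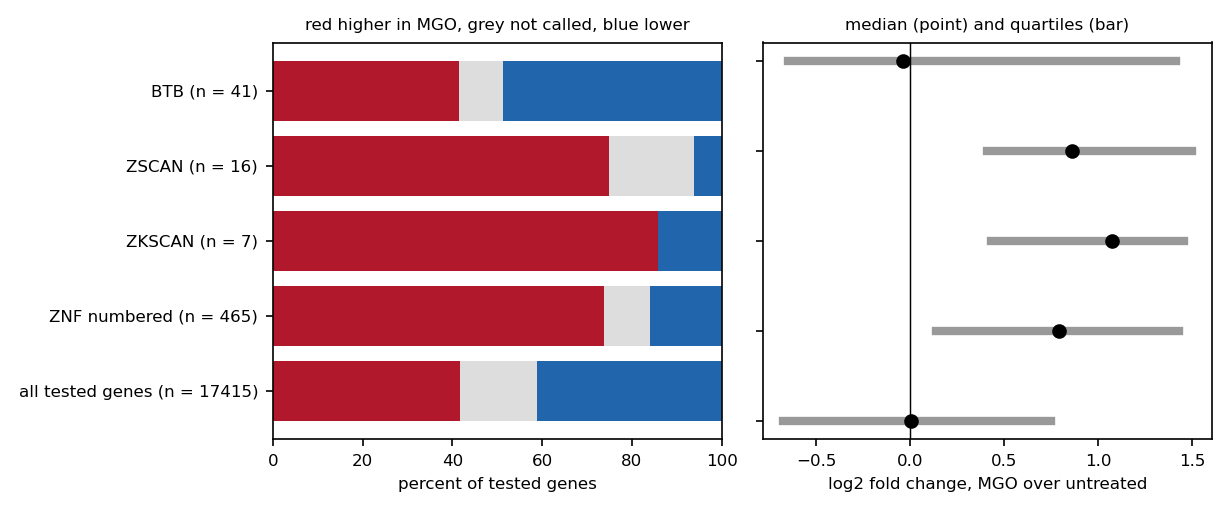
Left, percent of tested genes called higher (red), lower (blue) or not called (grey) with MGO for ZBTB genes, ZSCAN genes, ZKSCAN genes, numbered ZNF genes and all tested genes. Right, median log2 fold change (point) with quartiles (bar). The ZBTB median of -0.04 lies beside that of all genes, and the ZSCAN, ZKSCAN and numbered ZNF medians of 0.86, 1.07 and 0.79 lie to the right.

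Among ZBTB genes 12 rose and 6 fell by at least 2-fold, and among SCAN genes 11 rose and 0 fell by that much, where the background is 19.8% higher and 16.7% lower. Of the 12, ZBTB12B, ZBTB20 and ZBTB32 passed the filter on low counts only through their MGO libraries. Of the 6, ZBTB8B passed it only through its untreated libraries. Among members averaging at least 2 CPM, 9 of 36 ZBTB genes rose and 5 fell by at least 2-fold, and 10 of 21 SCAN genes rose and 0 fell. The MGO and untreated groups did not overlap for 37 of 41 ZBTB and 19 of 23 SCAN genes, beside 83.5% of all tested genes. When every tested member's level was summed per library, ZBTB genes came to 1003, 1003 and 1003 CPM in untreated libraries 1, 2 and 4 and to 1423, 1454 and 1506 CPM in MGO libraries 1, 3 and 4. Abundant genes weigh most in such a sum, and ZBTB21 went from 42.6 to 240 CPM and ZBTB10 from 53.0 to 167 CPM. By number, 17 ZBTB genes rose and 20 fell. SCAN genes summed to 359, 369 and 360 CPM without and 692, 696 and 727 CPM with MGO. Per 100 CPM of ZBTB transcripts there were therefore 35.8, 36.8 and 35.9 CPM of SCAN transcripts in untreated and 48.6, 47.8 and 48.3 in MGO libraries, and the groups did not overlap. CPM here are counts divided by library size after TMM scaling, which adjusts for depth and composition. A value is thus relative to that scaled size and no absolute amount. In bulk RNA, fewer cells with a transcript and less transcript per cell cannot be told apart.

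**Figure D2:**
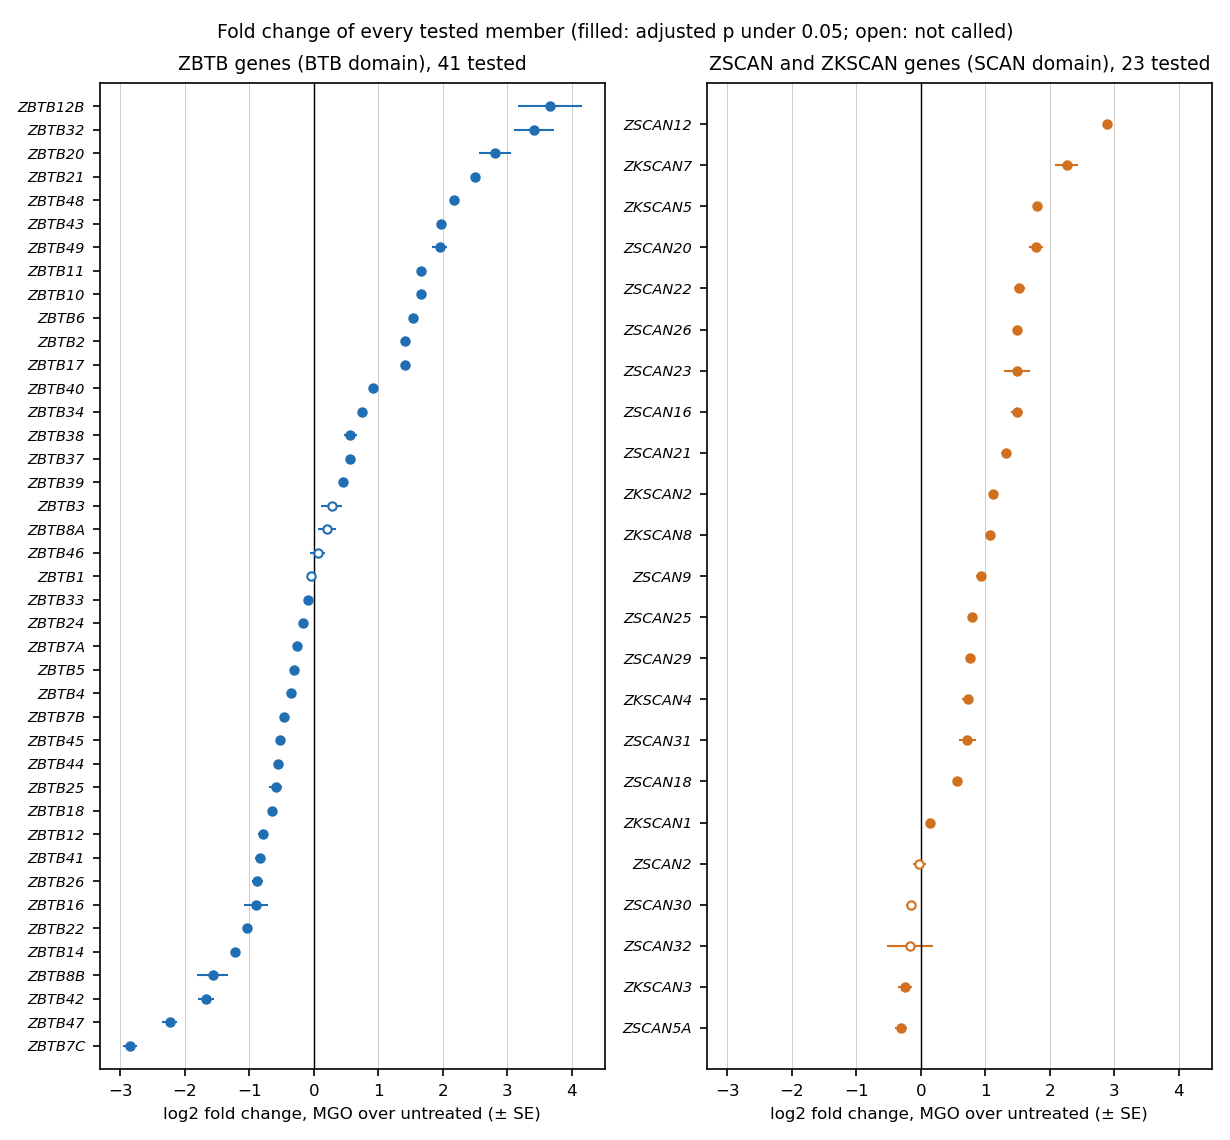
Log2 fold change (MGO over untreated, ± SE) of all 41 tested ZBTB genes (left) and 23 tested SCAN genes (right), each sorted by value, with filled points for adjusted p under 0.05. ZBTB genes lie on both sides of 0, from -2.85 to 3.66, whereas SCAN genes run from -0.31 to 2.89.

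Among ZBTB genes, the strongest rise at a sizeable level was that of ZBTB21, a repressor known to bind ZBTB14. ZBTB21 (chromosome 21, 41986831 to 42010387, minus strand, GENCODE 29 on GRCh38) stood at 41.5, 44.0 and 42.3 CPM in untreated libraries 1, 2 and 4 and at 227, 241 and 252 CPM in MGO libraries 1, 3 and 4. Every MGO library was more than 5 times as high as any untreated library. Its log2 fold change was 2.49 (SE 0.044, adjusted p = 9.96e-30, 5.63-fold), and its promoter is the first one printed above. ZBTB48, the telomere protein TZAP that binds long telomeres and sets off their trimming (chromosome 1, 6580001 to 6589280), went from 13.2, 13.4 and 14.1 to 61.7, 57.2 and 64.4 CPM, a 4.52-fold rise (log2 2.18, SE 0.055, adjusted p = 1.00e-25). The lowest MGO library was again far above the highest untreated library.

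Next in size were ZBTB43, ZBTB49, ZBTB11 and ZBTB10. ZBTB43 rose from 11.1 ± 0.793 to 43.4 ± 1.94 CPM (SD, n = 3 per group) and ZBTB49 from 2.54 ± 0.396 to 9.80 ± 0.421 CPM. ZBTB11, whose mutation causes a form of intellectual disability, stood at 18.5, 19.4 and 18.8 CPM without and 59.96, 60.6 and 58.8 CPM with MGO, so the SD within each group was below 1 CPM. ZBTB10, a factor known to repress SP1 and to bind telomeric repeat variants, was among the members with the smallest error. It stood at 52.0, 54.1 and 53.1 CPM without and 173, 162 and 167 CPM with MGO (log2 fold change 1.65, SE 0.040). Complete separation of the groups was a condition for this ranking, and it also held for 83.5% of all tested genes.

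The ZBTB genes tied to growth control went in both directions. ZBTB17 encodes MIZ-1, the partner through which MYC represses genes, and rose from 15.01, 14.9 and 15.03 to 38.2, 38.4 and 42.9 CPM (log2 fold change 1.41, SE 0.058, adjusted p = 2.21e-20). ZBTB2, a repressor of the p53 pathway and of CDKN1A, rose by nearly the same factor, from 37.4, 35.7 and 39.1 to 102, 101 and 96.0 CPM (log2 1.42, SE 0.044). ZBTB5, a second repressor of CDKN1A, fell slightly, from 35.8 ± 0.884 to 28.8 ± 0.623 CPM (log2 -0.31). ZBTB14, a repressor first described on the MYC promoter, fell from 21.3, 22.4 and 21.5 to 8.57, 9.66 and 9.79 CPM (log2 -1.22, SE 0.072, adjusted p = 3.76e-16). Its reported partner ZBTB21 thus rose while ZBTB14 fell.

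The largest fall belonged to ZBTB7C, a close relative of ZBTB7A. ZBTB7C (chromosome 18, 48026673 to 48410752, minus strand) stood at 13.7, 13.2 and 14.0 CPM without and 2.04, 1.83 and 1.81 CPM with MGO, a 7.21-fold fall (log2 -2.85, SE 0.11, adjusted p = 9.07e-21). ZBTB47 (chromosome 3, 42653684 to 42665854) fell from 12.7, 12.3 and 12.2 to 3.32, 2.31 and 2.33 CPM, with MGO library 1 the highest of its group. ZBTB42 fell from 9.05 ± 0.825 to 2.81 ± 0.622 CPM, and there MGO library 1 was the lowest, at 2.10 CPM. ZBTB22 fell from 26.1 ± 1.54 to 12.8 ± 0.708 CPM and ZBTB26 from 11.5 ± 0.478 to 6.23 ± 0.400 CPM. Groups without overlap were likewise a condition for ranking these 5 genes, and 83.5% of all tested genes met it.

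**Figure D3:**
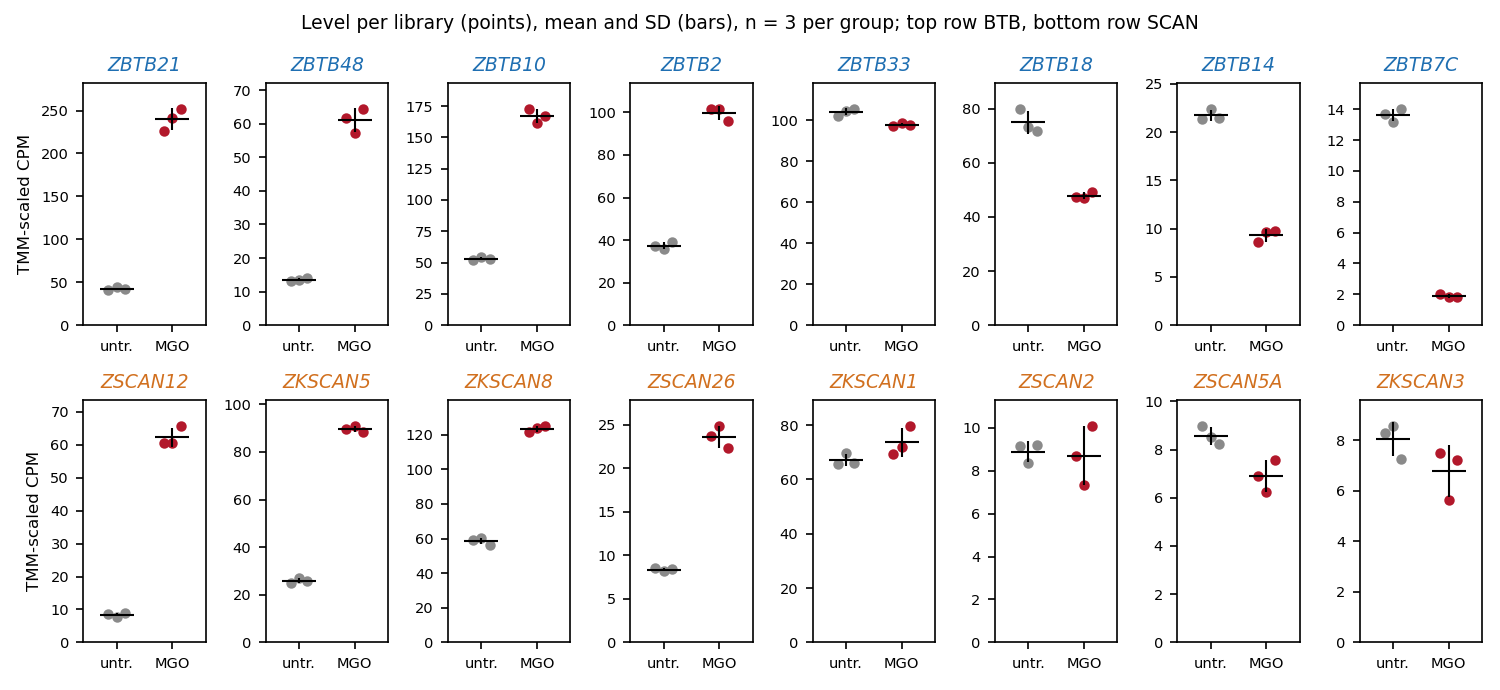
TMM-scaled CPM per library (points; grey untreated, red MGO) with mean and SD (bars, n = 3 per group), linear axes from 0, for 8 ZBTB genes (top) and 8 SCAN genes (bottom). ZBTB21 and ZSCAN12 show the widest gaps upward and ZBTB7C the widest downward, while the points of ZKSCAN1, ZSCAN2 and ZKSCAN3 overlap between groups.

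Of 9 regulators of lineage, in blood, brain and liver among other tissues, 5 fell and 2 were not called, beside 41.2% lower over all tested genes. The other 2, ZBTB32 and ZBTB20, were low and passed the filter only through their MGO libraries. ZBTB18, a repressor of neuronal genes also called RP58, fell from 79.9, 73.2 and 71.8 to 47.2, 46.9 and 49.3 CPM (log2 fold change -0.65, SE 0.047). ZBTB12 fell from 23.5 ± 0.995 to 13.6 ± 1.92 CPM. ZBTB7B, which directs CD4 T cell fate, fell from 26.9 ± 1.21 to 19.6 ± 1.08 CPM, and ZBTB7A, a repressor of fetal globin genes, from 38.5 ± 0.845 to 31.9 ± 1.20 CPM. ZBTB16, known as PLZF in germ line stem cells and innate-like T cells, was low throughout and fell from 2.32 ± 0.106 to 1.26 ± 0.233 CPM (adjusted p = 6.94e-05).

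ZBTB32, a repressor in lymphocytes, had 0.259, 0.104 and 0.164 CPM without and 2.10, 2.15 and 1.52 CPM with MGO, and ZBTB20, which silences alpha-fetoprotein in adult liver and shapes the hippocampus, had 0.323, 0.355 and 0.258 CPM without and 1.88, 2.42 and 2.38 CPM with MGO. Their large fold changes (log2 3.41 and 2.81) rest on few untreated reads. ZBTB12B, whose symbol had no match in GENCODE 29, also passed on its MGO libraries (0, 0.125 and 0.0940 CPM against 1.38, 0.590 and 0.9502 CPM). ZBTB1, required for lymphocyte development, had 21.2 ± 0.471 CPM without and 20.6 ± 0.962 CPM with MGO (adjusted p = 0.549, range over alternatives 0.00114 to 0.974). ZBTB46, a marker of dendritic cells, had 5.83 ± 0.737 and 6.06 ± 0.744 CPM (adjusted p = 0.627).

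Among ZBTB proteins that bind methylated CpG sites, ZBTB38 rose, ZBTB4 fell and ZBTB33 moved little. ZBTB38 stood at 16.5, 17.4 and 17.1 CPM without and 20.3, 25.2 and 29.5 CPM with MGO (log2 fold change 0.57, SE 0.10, adjusted p = 0.000224), the widest relative spread among the called ZBTB genes above 20 CPM with MGO. ZBTB4 fell from 62.0, 63.1 and 61.6 to 43.3, 52.4 and 50.6 CPM (log2 -0.35, SE 0.051). ZBTB33, or Kaiso, had 102, 105 and 106 CPM without and 97.4, 98.7 and 97.6 CPM with MGO. Its groups did not overlap, but the difference was small (log2 -0.09, SE 0.038, adjusted p = 0.0295) and was no longer called without untreated library 2 (adjusted p = 0.0525) or 4 (0.0632), or with RLE scaling (0.103), in a range over alternatives of 4.06e-09 to 0.535. ZBTB24, mutated in an immunodeficiency with unstable centromeres, was also only slightly lower (29.3 ± 0.905 to 26.1 ± 0.804 CPM, adjusted p = 0.00590), and its call was lost with untreated libraries thinned (0.0984, range over alternatives 3.31e-09 to 0.0984).

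The remaining tested ZBTB genes covered the middle of the range. Of them ZBTB6, ZBTB34, ZBTB37, ZBTB39 and ZBTB40 rose, by log2 values of 0.46 (ZBTB39) to 1.54 (ZBTB6). ZBTB8B, ZBTB25, ZBTB41, ZBTB44 and ZBTB45 fell, by log2 values of -0.52 (ZBTB45) to -1.57 (ZBTB8B). ZBTB8B, at 1.16, 0.322 and 1.19 CPM in MGO libraries 1, 3 and 4, passed the filter on low counts only through its untreated libraries. ZBTB3 (2.04 ± 0.127 against 2.47 ± 0.397 CPM) and ZBTB8A (3.74 ± 0.281 against 4.27 ± 0.949 CPM) had overlapping groups. ZBTB8A was not called (adjusted p = 0.167) and passed the threshold only with the replicate block (0.0272) and without MGO library 3 (0.0408), with adjusted p from 0.0272 to 0.912 over the alternatives.

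Among SCAN genes, ZSCAN12 rose most. ZSCAN12 (chromosome 6, 28378955 to 28399734, minus strand) went from 8.52, 7.86 and 8.90 CPM in untreated libraries 1, 2 and 4 to 60.7, 60.5 and 65.7 CPM in MGO libraries 1, 3 and 4. That is a 7.41-fold rise (log2 2.89, SE 0.059, adjusted p = 4.32e-28), with groups far apart relative to the spread within them. ZSCAN20 rose from 3.41 ± 0.567 to 11.7 ± 1.10 CPM, ZSCAN22 from 5.92 ± 0.620 to 17.1 ± 0.457 CPM and ZSCAN26 from 8.54, 8.17 and 8.39 to 23.8, 24.9 and 22.3 CPM (log2 1.497, SE 0.069). ZSCAN25 rose from 35.9 ± 0.699 to 62.3 ± 2.02 CPM. The other ZSCAN genes that rose, ZSCAN9, ZSCAN16, ZSCAN18, ZSCAN21, ZSCAN23, ZSCAN29 and ZSCAN31, had log2 fold changes of 0.55 (ZSCAN18) to 1.497 (ZSCAN23).

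Of the ZKSCAN genes, which pair the SCAN with a KRAB domain, ZKSCAN7 and ZKSCAN5 rose most, and these are the ZKSCAN genes in whose promoters TCGCGAGA was found, while ZKSCAN2 had no promoter entry to search. That sequence was chosen after the values were seen, and a link between it and the rises was not tested. ZKSCAN5 (chromosome 7, 99504651 to 99534700) went from 24.9, 27.0 and 25.7 to 89.5, 90.8 and 88.5 CPM (log2 fold change 1.79, SE 0.045, adjusted p = 7.99e-26). ZKSCAN7 (chromosome 3, 44555193 to 44594173) was scarce, at 0.733, 0.815 and 0.658 CPM without and 3.21, 3.54 and 3.85 CPM with MGO (log2 2.26, SE 0.18). ZKSCAN8 had 59.2, 60.2 and 56.5 CPM without and 121, 124 and 125 CPM with MGO, about double in every library (log2 1.07, SE 0.039). ZKSCAN2 (log2 1.13) and ZKSCAN4 (0.72) rose too.

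ZKSCAN1 and ZKSCAN3 differed little. ZKSCAN1 stood at 65.6, 69.6 and 66.0 CPM without and 69.6, 71.9 and 79.6 CPM with MGO, and MGO library 1 did not exceed untreated library 2. It was called higher (log2 0.14, SE 0.046, adjusted p = 0.00676), but not without untreated library 1 (0.0563), untreated library 4 (0.0510) or MGO library 4 (0.428), and its sign turned with no filter on low counts (range over alternatives 0.000507 to 0.569). ZKSCAN3, known as a repressor of autophagy genes, stood at 8.30, 8.57 and 7.28 CPM without and 7.52, 5.64 and 7.22 CPM with MGO. Its groups overlapped and its lower call (log2 -0.25, SE 0.10, adjusted p = 0.0285) was lost without untreated library 1 (0.0760), untreated library 2 (0.108) or MGO library 3 (0.181), with adjusted p from 3.34e-05 to 0.590 over the alternatives. Without untreated library 1, only ZSCAN5A was still called lower among SCAN genes.

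ZSCAN5A was the other SCAN gene called lower, from 8.97, 8.50 and 8.22 to 6.91, 6.23 and 7.55 CPM (log2 fold change -0.31, SE 0.093, adjusted p = 0.00329), a call that was lost with the replicate number as a block (0.0806, in a range over alternatives from 1.01e-06 to 0.0806). ZSCAN2 had 8.89 ± 0.478 CPM without and 8.70 ± 1.36 CPM with MGO (adjusted p = 0.835, range over alternatives 0.0474 to 0.995), with overlapping groups. ZSCAN30 had 13.1 ± 0.588 and 11.7 ± 0.981 CPM and was not called (adjusted p = 0.0579), although its groups did not overlap. It was called lower without untreated library 2 (0.0388), MGO library 3 (0.0281) or MGO library 4 (0.0159), with adjusted p from 3.51e-05 to 0.539 over the alternatives. ZSCAN32 was at the lower edge of detection, at 0.469 ± 0.0923 and 0.420 ± 0.0828 CPM, and was not called.

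The 3 members that failed the filter were all SCAN genes. ZSCAN10, known from embryonic stem cells, had 0 counts in every untreated library and 5, 3 and 4 counts in the MGO libraries. After scaling these are 9.47 times a floor of 3 counts over the untreated group, with no allowance for counting error. ZSCAN5C had 2 counts without and 28 with MGO, 18 of these in MGO library 1, a ratio after scaling of 33.2 (95% exact interval 8.36 to 287, counting error only). ZSCAN5B had 20 and 9 counts, a ratio of 1.07 (0.427 to 2.45). ZSCAN5A, ZSCAN5B and ZSCAN5C are close paralogs whose reads may be shared.

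Levels of different genes can be set side by side only per length. As TMM-scaled CPM per kilobase of merged exons, the highest untreated levels among members were those of ZBTB33 (19.6), ZBTB18 (19.2), ZBTB12 (12.5) and ZBTB2 (12.1). With MGO the order changed, and ZBTB2 (32.3) and ZBTB21 (29.7) stood above ZBTB33 (18.4), ZBTB10 (16.3) and ZKSCAN8 (16.3). ZKSCAN8 (7.75), ZKSCAN1 (6.50) and ZSCAN25 (5.06) led the SCAN genes in untreated cells, and ZKSCAN8, ZKSCAN5 (14.8) and ZSCAN12 (11.3) led them with MGO. Per kilobase, ZSCAN12 thus went from 1.53 to 11.3. Log2 fold change showed only weak rank correlations with the length of merged exons across the 63 tested members with a length (rho -0.04, and 0.13 in ZBTB and -0.33 in SCAN genes), given as a description over genes that share the same libraries.

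Many SCAN genes lie close together. A group of 9 on chromosome 6, between 28124560 and 28443502 (each within 1000000 bases of the next), held ZSCAN16, ZKSCAN8, ZSCAN9, ZKSCAN4, ZSCAN26, ZSCAN31, ZKSCAN3, ZSCAN12 and ZSCAN23. Of these, 8 were higher and ZKSCAN3 was lower, with a median log2 fold change of 1.07. For comparison, 78.3% of all tested SCAN genes, these included, 73.8% of numbered ZNF genes and 41.8% of all tested genes were called higher. The ZKSCAN3 groups overlapped and its call was lost in several alternatives, as given above. SCAN genes under other symbols were not considered in forming these groups. ZKSCAN3 and ZSCAN31 overlap on opposite strands, and their values were -0.25 and 0.72. ZSCAN12, next along the chromosome after ZKSCAN3, had the highest value, so neighbours in this group differed widely. The group of 4 on chromosome 7 (99504651 to 100065038) was higher throughout, from 0.14 for ZKSCAN1 to 1.79 for ZKSCAN5, although ZKSCAN1 turned to -0.045 with no filter on low counts.

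**Figure D4:**
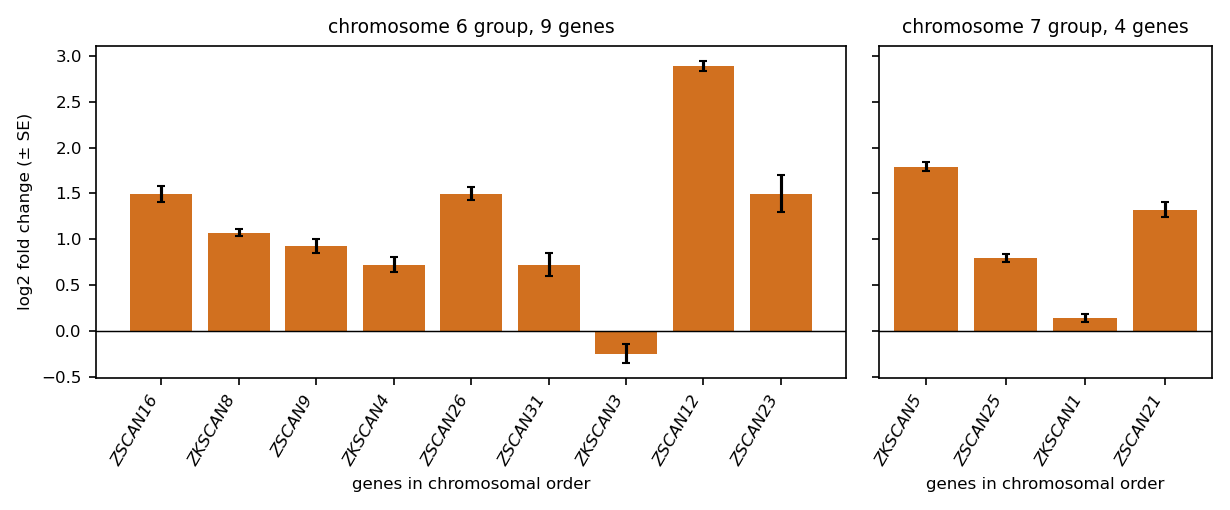
Log2 fold change (bars, ± SE) of neighbouring SCAN genes in chromosomal order, 9 on chromosome 6 (left) and 4 on chromosome 7 (right). ZKSCAN3 is below 0 beside ZSCAN12, which is highest at 2.89.

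Neighbouring ZBTB genes could go opposite ways. On chromosome 9, ZBTB6 rose from 19.9 ± 0.549 to 57.7 ± 2.37 CPM while its neighbour on the same strand, ZBTB26, fell as given above. ZBTB43 and ZBTB34, farther along that chromosome, both rose (log2 1.98 and 0.74). On chromosome 1, ZBTB8B fell (-1.57), ZBTB8A was not called (0.20) and ZSCAN20 rose (1.79). As given above, ZBTB8B passed the filter only through its untreated libraries. Of 66 members with a match in GENCODE 29, 30 overlap a gene on the opposite strand and 16 a gene on the same strand. No source used here states whether strand was used in counting, and reads of these partners may be included.

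Genes with the same domains under other symbols were counted beside the background of 41.8% higher and 41.2% lower over all tested genes. Of 11 tested BTB genes with other names, 6 rose, 3 fell and 2 were not called (median log2 fold change 0.32). HIC1, a tumour suppressor and repressor, rose from 2.50, 2.26 and 2.63 to 15.4, 15.7 and 17.3 CPM, and BACH1, a heme-sensing repressor of antioxidant genes, from 46.5 to 143 CPM. NACC2 fell from 74.6, 75.03 and 71.8 to 11.1, 11.6 and 11.6 CPM and the related corepressor NACC1 from 280 to 109 CPM. Of 23 tested SCAN genes with other names, 15 rose, 6 fell and 2 were not called (median 0.43). ZNF483 rose from 1.00 to 7.09 CPM and ZNF274, which recruits SETDB1 to zinc finger gene clusters, from 26.0, 26.5 and 26.3 to 152, 163 and 167 CPM. ZNF174 (10.5 to 4.17 CPM) and ZNF500 (10.6 to 6.50 CPM) fell most. SCAND1, which is little more than a SCAN domain, fell from 65.5 to 46.6 CPM (log2 -0.49).

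Cofactors of these domains were counted beside the same background, 41.8% higher and 41.2% lower over all tested genes. Of 13 tested partners of BTB domains, 4 rose, 6 fell and 3 were not called (median log2 fold change -0.08). GPS2 rose from 5.08 to 9.17 CPM and SIN3B from 60.2 to 84.0 CPM. TBL1X, a subunit of corepressor complexes, fell from 45.2, 42.2 and 40.4 to 9.45, 10.7 and 10.9 CPM, and CUL3, the ubiquitin ligase scaffold that binds BTB domains, from 112, 108 and 111 to 59.2, 64.2 and 63.1 CPM. Of 8 cofactors of KRAB domains, 2 rose (SETDB1, 45.2 to 93.9 CPM, and ATF7IP, 100 to 203 CPM), 5 fell and 1 was not called. The scaffold TRIM28 fell slightly (1160 to 1034 CPM), and the heterochromatin proteins CBX5 (366 to 218 CPM) and CBX3 (327 to 217 CPM) fell more.

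**Figure D5:**
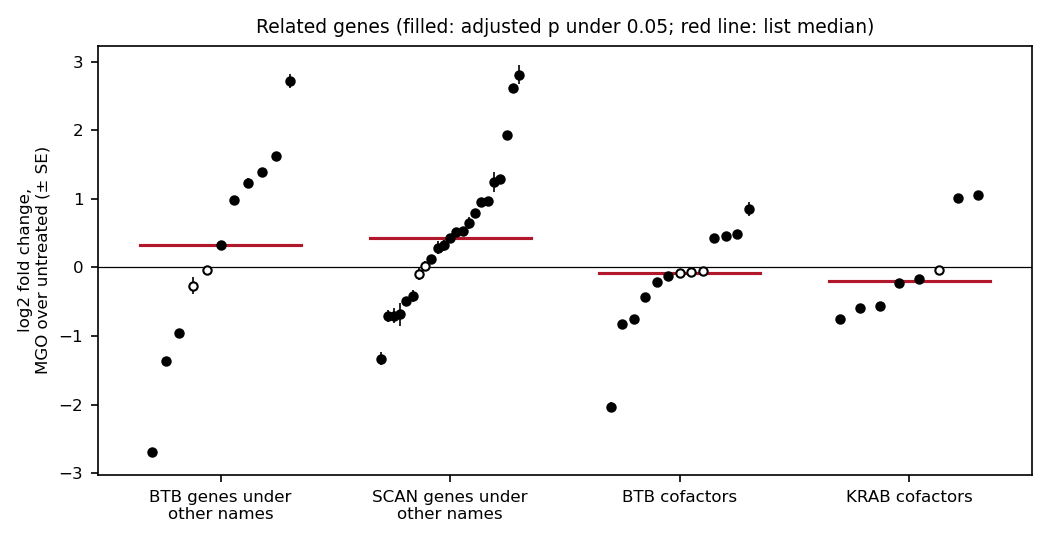
Log2 fold change (± SE) of related genes in 4 lists, sorted within each list, filled where adjusted p is under 0.05, with list medians in red. Medians are 0.32 and 0.43 for BTB and SCAN genes under other names, and -0.08 and -0.20 for cofactors of BTB and KRAB domains.

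Within the MGO group the libraries were not equal. Of the 64 tested members, 24 increased from MGO library 1 to 3 to 4 and 4 decreased in that order, which is the order of falling mitochondrial share (8.17%, 6.00% and 5.34%). The same count was not made over all tested genes, so it cannot be read as a trait of the members. ZBTB21 and ZBTB38 were among those lowest in library 1. The part of the mitochondrial share in these values was not tested. Without both libraries numbered 1, the calls of all 64 tested members kept their direction and side of the threshold, and the SCAN median was 0.81 in place of 0.93.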

How the data were processed

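Each library has a deposited table of whole-number counts by gene symbol, without normalization by the authors. The submitters' processing notes name HTSeq 0.9.1, STAR 2.4, Trim Galore and Picard, and build hg38. Settings, annotation and strand use are not given in the sources. Counts were tested with edgeR 4.0.16 in R 4.3.3 (filterByExpr, TMM scaling, robust glmQLFit, two-sided glmQLFTest, no covariate, 4 residual degrees of freedom), with Benjamini-Hochberg adjustment over all 17415 tested genes at 0.05. The SE is the log2 fold change divided by the square root of F. The prior count of log2 CPM was 2. Coordinates and exon lengths come from GENCODE 29, matched by symbol for 66 of 67 members.

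Members, lists and tests were chosen with earlier results of these data known. Named genes were, per class, the 6 largest rises and falls among called genes averaging at least 2 CPM with separated groups, the 3 highest per length, the 3 largest p, members with fixed roles, those failing the filter, and the 2 largest rises and falls of each related list; others are named to account for all members. Motifs and ZSCAN12 per length were chosen after values were seen. A gene of the BTB cofactor list is not reported here and was left out of its counts.

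Library pairs within groups had a chi-square per degree of freedom of 1.88 to 14.7, so none was within sampling noise. The test was tried on simulated data. Alternatives were scaling by RLE, upper quartile or library size, no filter or at least 1 CPM in every library, each library left out, a replicate block, limma 3.58.1 voom, DESeq2 1.42.0, no robust shrinkage, thinned untreated libraries, a test against 1.5-fold and at least 100 counts per member. Leaving out both libraries numbered 1 was added after seeing the data.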

Additional observations from a re-analysis of the deposited data

How the results depend on the processing

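Of 64 tested members, 53 kept their direction and their side of the threshold under every alternative fit that tested them, of 17 fits run. The fit with at least 1 CPM in every library tested 56 members. A test against 1.5-fold and a minimum of 100 counts per member were applied to counts of calls only. Direction turned for 5: ZBTB1 (0.026 with at least 1 CPM in every library, 0.0034 with the replicate block, 0.011 with thinning), ZBTB46 (-0.044 with library size, -0.12 with no filter, -0.11 with the block, -0.046 to 0.14 with 1 library left out), ZBTB8A (-0.020 to 0.32 with 1 library left out), ZKSCAN1 (-0.045 with no filter) and ZSCAN2 (0.00064 with RLE, 0.044 with at least 1 CPM, 0.034 with the block, 0.062 with thinning, -0.19 to 0.057 with 1 library left out). Calls of the other 6 (ZBTB3, ZBTB24, ZBTB33, ZKSCAN3, ZSCAN5A and ZSCAN30) crossed the threshold in some fits. Of the 5 whose direction turned, all but ZBTB46 crossed it as well. ZBTB1 was called lower with library size (adjusted p = 0.0336) and no filter (0.00114), and ZSCAN2 with no filter (0.0474).

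The ZBTB median log2 fold change was -0.15 with library size, -0.22 with no filter, 0.00067 with at least 1 CPM in every library, -0.093 with the block and 0.011 with thinning, and -0.11 to -0.041 with 1 library left out. The SCAN median was 0.82 with library size, 0.82 with no filter, 1.01 with the block, 1.08 with thinning, 0.81 without both libraries numbered 1, and 0.82 to 0.97 with 1 library left out. Their difference was 1.04 with no filter, 1.10 with the block, 1.07 with thinning, 0.87 without both libraries numbered 1, and 0.88 to 1.08 with 1 library left out. No filter moved the median of all genes from 0.01 to 0.20, over 35722 genes, and library size moved it to -0.10. SCAN genes called lower numbered 4 with no filter, 1 with at least 1 CPM, 1 with DESeq2, 0 with the block and 1 to 3 with 1 library left out. Against 1.5-fold, 8305 genes were called, with 10 members lower (10 ZBTB, 0 SCAN) and 29 higher (14 and 15); a stricter null calls fewer by construction. The cause of the other shifts was not tested.

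Replicate numbers 1 and 4 occur in both groups, but same-numbered libraries did not deviate together (correlations over genes 0.020 and -0.0078), so the numbers were not taken as pairs; with the replicate block 13451 genes were called in place of 14464, with 36 members higher and 19 lower. MGO libraries had fewer counts, and SEs of members ranged from 0.038 to 0.49.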
